A study of Xenopus laevis and Xenopus tropicalis with 12 samples.

Results

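The mRNAs described here encode 10 kinases and partners that build the spindle and guard the separation of chromosomes: aurka, tpx2, aurkb, incenp, plk1, bub1, bub1b, bub3, mad2l1 and cdc20. They were chosen by symbol in the deposited annotation, each matched 1 gene model, and they are 10 of the 28165 models counted in every library. RNA came from hand-dissected vegetal and animal hemispheres of full-grown oocytes of the frogs Xenopus laevis and Xenopus tropicalis, with no treatment named in the labels. The X. laevis oocytes were at stage VI and gave 4 vegetal and 4 animal libraries, 2 batches from female A (A_t1 and A_t2) and 2 from female B (B_t1 and B_t2). The X. tropicalis oocytes, labelled full grown, gave 2 vegetal and 2 animal libraries, from females 1 and 2. The question the design puts is how evenly each mRNA is shared between the vegetal and the animal side of the oocyte, and whether the 2 species differ in this. The labels do not say how many oocytes went into a library, or what t1 and t2 stand for.

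A full-grown oocyte is arrested in the first meiotic prophase and carries a store of maternal mRNA, much of it translated only when the oocyte matures or after fertilization. Aurora A is a centrosomal and spindle kinase that TPX2 binds and activates on spindle microtubules, and Aurora B works with its scaffold INCENP in the chromosomal passenger complex, which corrects faulty attachments between chromosomes and microtubules. Polo-like kinase 1 acts from mitotic entry to cytokinesis, and Bub1, BubR1 (the product of bub1b), Bub3 and Mad2 (the product of mad2l1) form the spindle checkpoint, which holds back Cdc20, the activator of the anaphase-promoting complex. In Xenopus oocytes the nucleus lies in the animal hemisphere, and the meiotic spindle forms and moves to the cortex at the animal pole.

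Library totals ran from 30416352 to 45235154 counts in X. laevis and from 7772801 to 28392285 in X. tropicalis. Each member had between 1457 and 154779 counts in a library of X. laevis and between 182 and 56867 in one of X. tropicalis, so that all 10 passed the filter on low values in both species. Levels are CPM, counts scaled to library totals that were adjusted by edgeR's TMM method within a species, so that they measure an mRNA's share of a library and not its amount in a hemisphere. Of 8 known vegetal mRNAs, all were called vegetal in both species. Of 9 oocyte markers none was at 0 in any group, and their summed level was 2861 to 3625 CPM in vegetal and 2014 to 2370 CPM in animal libraries of X. laevis, and 4139 to 4228 CPM in vegetal and 2348 to 2633 CPM in animal libraries of X. tropicalis. The 10 follicle cell markers summed to 296 to 367 CPM in vegetal and 81.7 to 155.0 CPM in animal libraries of X. laevis, nearly all of it cyp17a1 (means of 325 and 118 CPM). Every other marker of that list averaged at most 1.76 CPM (star) over the X. laevis libraries. The hemisphere difference of the sum is thus that of cyp17a1, and which cells this mRNA came from was not tested. In X. tropicalis the 10 markers summed to 0.899 to 1.18 CPM in vegetal and 0.661 to 2.19 CPM in animal libraries, with cyp17a1, fshr, foxl2 and hsd3b1 at 0 in both hemispheres. Blood, immune and connective tissue markers summed to at most 19.2, 8.22 and 253 CPM in any library. The connective tissue sum was mostly fn1 and vim in X. laevis (means of 98.9 and 74.02 CPM) and fn1 in X. tropicalis (67.49 CPM). The collagens col1a1, col1a2 and col3a1 averaged at most 0.1496 CPM in either species. Most of the blood sum was slc4a1 (9.186 CPM in X. laevis and 12.77 CPM in X. tropicalis). Each globin of that list averaged at most 0.9868 CPM. In such bulk samples fewer cells of a type and less RNA per cell cannot be told apart, and the part of such cells in the values below was not tested.

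In X. laevis 2 members were called vegetal (incenp and plk1) and 2 animal (aurka and bub3), where a call is an adjusted p under 0.05 from edgeR's quasi-likelihood test across all models with the batch as a block. Of all 14517 models tested, 27.7% were called, 13.2% vegetal and 14.4% animal. In X. tropicalis 1 member was called vegetal (bub3) and 5 animal (aurka, bub1, aurkb, bub1b and plk1), beside 15.6% and 17.3% of the 12916 models tested there (33.0% in either direction). At least 2-fold changes were all animal: aurka in X. laevis, and aurka and bub1 in X. tropicalis, where 3.58% and 3.63% of the tested models were called animal at that size. No member was called vegetal at that size, as 3.01% of the models were in X. laevis and 3.29% in X. tropicalis. The median log2 fold change of the 10 members, vegetal over animal, came to -0.016 for X. laevis and -0.146 for X. tropicalis, beside -0.014 and -0.007 over all models tested. Of the 10, aurka alone was called in the same direction in both species, and 6.13% of the 11688 models tested in both were called animal in both. No member was called vegetal in both, as 6.59% of the models were. The directions of plk1 and bub3 were opposite in the 2 species, as were those of 2.13% of these models. The X. laevis p-values come from 4 pairs of only 2 females, so that batches of a female are not separate animals. Those of X. tropicalis use almost wholly the spread pooled across genes (1 residual degree of freedom and a prior of 162).

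**Figure D1:**
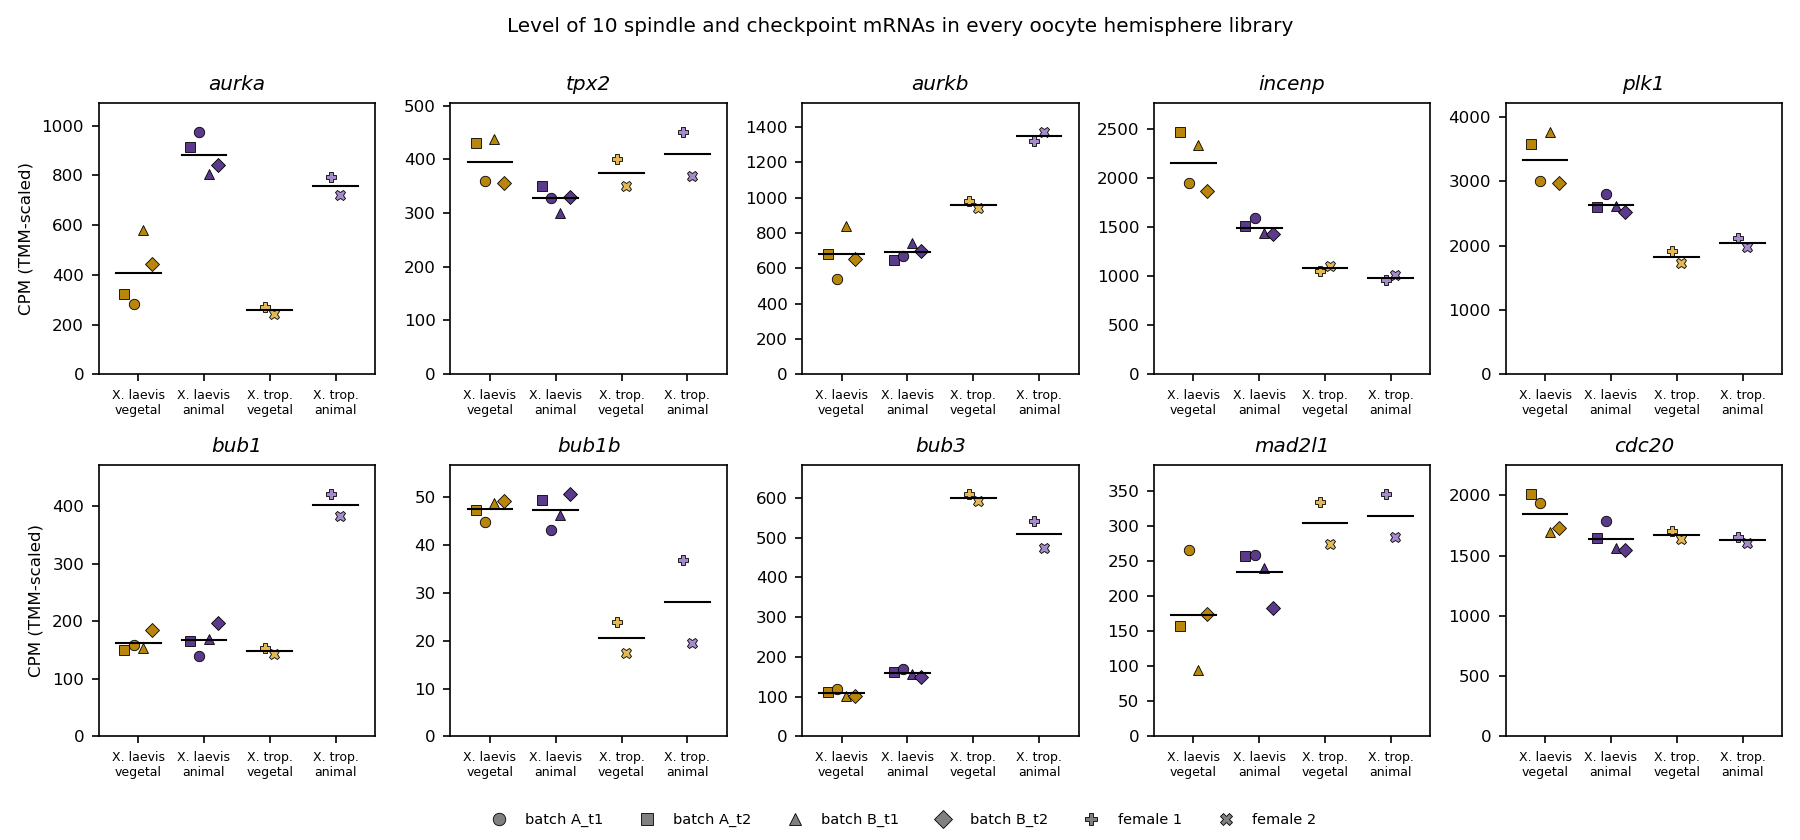
Level of each of the 10 mRNAs (y axis, CPM of TMM-scaled totals, from 0) in every library of X. laevis vegetal, X. laevis animal, X. tropicalis vegetal and X. tropicalis animal hemispheres (x axis). Symbols mark batches and females and bars the group mean; aurka is lower in all vegetal than in all animal libraries of both species, bub1 in those of X. tropicalis, and bub3 lies near 600 CPM in X. tropicalis vegetal and near 110 CPM in X. laevis vegetal libraries.

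The mRNA of aurka (model Xetrov72017409), Aurora A, listed in the annotation also as Eg2, was the most animal of the 10 in both species. In X. laevis it stood at 284 (A_t1), 323 (A_t2), 580 (B_t1) and 445 CPM (B_t2) in vegetal libraries, against 975 (A_t1), 913 (A_t2), 807 (B_t1) and 841 CPM (B_t2) in animal libraries. Every vegetal library lay below every animal one, and the vegetal libraries of female A were the lowest. The means were 408 ± 134 CPM in vegetal and 884 ± 75.2 CPM in animal libraries (SD, n = 4 each), a log2 fold change of -1.17 ± 0.20 (SE), or 2.25-fold lower in the vegetal hemisphere, with adjusted p = 0.00435 (edgeR). In X. tropicalis aurka had 271 (female 1) and 242 CPM (female 2) in vegetal libraries, against 795 (female 1) and 719 CPM (female 2) in animal libraries. The groups did not overlap there either, and the fall was 2.95-fold (log2 fold change -1.56 ± 0.06, adjusted p = 1.78e-56, edgeR). Of the other 11687 models tested in both species, 36 had log2 fold changes as low as those of aurka in both. At least 2-fold animal in both species were 0.787% of the models tested in both.

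The size of the aurka difference varied between X. laevis pairs. The log2 ratio within a pair, vegetal over animal, was -1.78 in A_t1 and -1.50 in A_t2, against -0.48 in B_t1 and -0.92 in B_t2, while both X. tropicalis pairs gave -1.55 and -1.57. Each female's 2 batches alone gave -0.69 ± 0.19 in female B and -1.64 ± 0.17 in female A, both called (adjusted p = 0.00345 and 1.81e-21, edgeR). Each of these fits rests on 2 pairs of 1 animal, so that its p-value does not measure the spread between animals. The difference between the females, B minus A, was 0.94 ± 0.22 with an unadjusted p of 0.00269 and an adjusted p of 1 (edgeR), and the ratio was higher in both B batches than in both A batches. No model passed that test of the females and 254 of 14517 (1.75%) had an unadjusted p under 0.05, with aurka the only member among them. A batch left out leaves 1 female a single pair, assumed to vary like those of the other female. The difference was then 0.785 without A_t1, 1.07 without A_t2, 0.701 without B_t1 and 1.17 without B_t2. The models called animal at least 2-fold in X. laevis had median ratios of -1.29 (A_t1), -1.54 (A_t2), -1.53 (B_t1) and -1.17 (B_t2) in the same pairs, in an order other than that of aurka. Those called vegetal at least 2-fold had medians of 1.73 (A_t1), 1.82 (A_t2), 1.57 (B_t1) and 1.80 (B_t2). Their median was thus lowest in B_t1, the pair in which aurka was least animal. Both sets were called from these same libraries, and the cause of the aurka spread was not tested. In X. tropicalis the log2 fold change of aurka lay between -1.63 and -1.48 in the 4 fits with no block and 1 library left out. These fits leave 1 hemisphere a single library, and their calls are not given.

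The mRNA of tpx2 (Xetrov72043499), the microtubule-associated activator of Aurora A, did not share this pattern. In X. laevis it had 359 (A_t1), 430 (A_t2), 438 (B_t1) and 356 CPM (B_t2) in vegetal libraries, against 328 (A_t1), 351 (A_t2), 300 (B_t1) and 330 CPM (B_t2) in animal libraries. Every vegetal value lay above every animal one, by little, and the log2 fold change of 0.27 ± 0.09 missed the threshold (adjusted p = 0.0659, edgeR), with a 95% interval of 0.05 to 0.48. With DESeq2 size factors it passed (0.29, adjusted p = 0.0458, edgeR), as it did in DESeq2's own test (adjusted p = 0.0293). In X. tropicalis tpx2 had 401 and 350 CPM in vegetal and 451 and 369 CPM in animal libraries of females 1 and 2, overlapping groups with a log2 fold change of -0.12 ± 0.06 (adjusted p = 0.11, edgeR). Within every pair of both species aurka was more animal than tpx2: the difference of their log2 ratios, aurka minus tpx2, lay between -1.91 and -1.02.

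Aurora B and its scaffold differed from each other by a steady amount. The mRNA of aurkb (Xetrov72042237) had 540 (A_t1), 682 (A_t2), 841 (B_t1) and 654 CPM (B_t2) in X. laevis vegetal libraries, against 668 (A_t1), 648 (A_t2), 745 (B_t1) and 700 CPM (B_t2) in animal libraries. These groups overlapped, with a log2 fold change of -0.04 ± 0.09 (95% interval -0.26 to 0.18, adjusted p = 0.783, edgeR) that turned to 0.07 without batch A_t1. In X. tropicalis aurkb had 980 and 943 CPM in vegetal libraries of females 1 and 2, against 1321 and 1373 CPM in animal libraries, where the groups stood apart. The fall was 1.40-fold (log2 fold change -0.49 ± 0.06, adjusted p = 1.01e-12, edgeR), and without the block it was not called (adjusted p = 0.166, edgeR).

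The mRNA of incenp (Xetrov72008578), the scaffold that binds and activates Aurora B, was the most vegetal of the 10 in X. laevis. It had 1950 (A_t1), 2469 (A_t2), 2338 (B_t1) and 1863 CPM (B_t2) in vegetal libraries, against 1593 (A_t1), 1507 (A_t2), 1441 (B_t1) and 1429 CPM (B_t2) in animal libraries. The lowest vegetal library exceeded the highest animal one, and the rise was 1.43-fold (log2 fold change 0.52 ± 0.10, adjusted p = 0.00608, edgeR). In X. tropicalis incenp had 1053 and 1106 CPM in vegetal and 960 and 1007 CPM in animal libraries of females 1 and 2. There too the vegetal libraries were higher in both pairs, yet the log2 fold change of 0.13 ± 0.06 missed the threshold (adjusted p = 0.0684, edgeR).

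The mRNA of plk1 (Xetrov72004931), Polo-like kinase 1, known in Xenopus as Plx1, was called in both species, in opposite directions. In X. laevis it stood at 3010 (A_t1), 3584 (A_t2), 3769 (B_t1) and 2974 CPM (B_t2) in vegetal libraries, against 2800 (A_t1), 2599 (A_t2), 2613 (B_t1) and 2529 CPM (B_t2) in animal libraries. All vegetal libraries exceeded all animal ones, and the rise was 1.26-fold (log2 fold change 0.33 ± 0.09, adjusted p = 0.0311, edgeR). That call was lost without batch A_t2 (adjusted p = 0.125, edgeR), without batch B_t2 (0.0745) and in each female alone (0.111 in B and 0.289 in A), with log2 values between 0.29 and 0.42 over these and the other fits that left out a batch. In X. tropicalis plk1 had 1922 and 1725 CPM in vegetal libraries of females 1 and 2, against 2117 and 1979 CPM in animal libraries. The groups did not overlap, but the fall was small (log2 fold change -0.17 ± 0.06, adjusted p = 0.0181, edgeR) and was not called by DESeq2 (adjusted p = 0.0746) or without the block (adjusted p = 0.878, edgeR).

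The mRNA of bub1 (Xetrov72000260), a kinase that docks at kinetochores, was even in X. laevis, with 159 (A_t1), 149 (A_t2), 153 (B_t1) and 184 CPM (B_t2) in vegetal libraries, against 139 (A_t1), 166 (A_t2), 169 (B_t1) and 196 CPM (B_t2) in animal libraries. The groups overlapped and the log2 fold change was -0.05 ± 0.09, with a 95% interval of -0.25 to 0.15 (adjusted p = 0.687, edgeR). In X. tropicalis bub1 had 154 and 143 CPM in vegetal libraries of females 1 and 2, against 421 and 382 CPM in animal libraries. Both vegetal libraries lay far below both animal ones, a 2.70-fold fall (log2 fold change -1.43 ± 0.06, adjusted p = 2.29e-50, edgeR). It was still called without the block (adjusted p = 0.0181, edgeR). In the 4 fits with no block and 1 library left out, 1 hemisphere has a single library and only the log2 fold change is given. It lay between -1.49 and -1.36.

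The mRNA of bub3 (Xetrov72026476), the WD-repeat protein that brings Bub1 and BubR1 to kinetochores, was animal in X. laevis. It had 119 (A_t1), 111 (A_t2), 102 (B_t1) and 102 CPM (B_t2) in vegetal libraries, against 170 (A_t1), 163 (A_t2), 156 (B_t1) and 148 CPM (B_t2) in animal libraries. The groups stood apart, and the ratio within a pair was the most even of the 10, between -0.61 and -0.51 on the log2 scale. The fall was 1.47-fold (log2 fold change -0.55 ± 0.07, adjusted p = 0.00115, edgeR), called in every fit except that of female B alone (adjusted p = 0.0501, edgeR). In X. tropicalis bub3 had 610 and 592 CPM in vegetal libraries of females 1 and 2, against 542 and 473 CPM in animal libraries. Here the vegetal libraries were the higher ones, by 1.19-fold (log2 fold change 0.25 ± 0.06, adjusted p = 0.000318, edgeR), a call that was lost without the block (adjusted p = 0.688, edgeR).

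The mRNA of bub1b (Xetrov72015470), which encodes the checkpoint protein BubR1, had the fewest counts of the 10. In X. laevis it lay between 44.8 and 49.2 CPM in vegetal and between 43.2 and 50.7 CPM in animal libraries. The groups overlapped, with a log2 fold change of 0.01 ± 0.08 (95% interval -0.18 to 0.19, adjusted p = 0.961, edgeR), which turned to -0.07 with scaling by library totals. In X. tropicalis it had 23.8 and 17.4 CPM in vegetal libraries of females 1 and 2, against 36.9 and 19.5 CPM in animal libraries. The animal library of female 1 stood apart from the other 3, and its 446 counts gave an exact Poisson 95% interval of 33.5 to 40.4 CPM, which covers counting error only. The fitted log2 fold change was -0.37 ± 0.11 (adjusted p = 0.00521, edgeR). Neither DESeq2 (adjusted p = 0.232) nor edgeR without the block (adjusted p = 0.913) called bub1b. The fits with 1 library left out have no block, and only their log2 fold changes are given. Without the animal library of female 1 the value was 0.08, and with any of the other 3 libraries left out it was below 0.

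The mRNA of mad2l1 (Xetrov72022451), which encodes the checkpoint effector Mad2, varied most between X. laevis batches. It had 266 (A_t1), 158 (A_t2), 94.3 (B_t1) and 176 CPM (B_t2) in vegetal libraries, against 259 (A_t1), 258 (A_t2), 241 (B_t1) and 184 CPM (B_t2) in animal libraries. The vegetal libraries of A_t2 and B_t1 lay far below their animal partners, with log2 ratios of -0.71 and -1.35, while those of A_t1 and B_t2 were about level with theirs, at 0.04 and -0.07. The log2 fold change over all 4 pairs was -0.52 ± 0.21 (95% interval -1.01 to -0.02, adjusted p = 0.109, edgeR). It was -0.22 without batch B_t1, and it was called without batch A_t1 (-0.69, adjusted p = 0.0313, edgeR) and in female B alone (-0.70, adjusted p = 0.00924, edgeR). The 2 batches of female B come from 1 animal and had ratios of -1.35 and -0.07. The SE of that fit was 0.21, so that its p-value does not measure how far these 2 pairs lay apart. In X. tropicalis mad2l1 had 335 and 274 CPM in vegetal and 346 and 285 CPM in animal libraries of females 1 and 2, with a log2 fold change of -0.05 ± 0.06 (95% interval -0.17 to 0.07, adjusted p = 0.575, edgeR). The females differed there more than the hemispheres did.

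The mRNA of cdc20 (Xetrov72009483), the activator of the anaphase-promoting complex that Mad2 and BubR1 hold in check, was close to even in both species. In X. laevis it had 1941 (A_t1), 2012 (A_t2), 1700 (B_t1) and 1726 CPM (B_t2) in vegetal libraries, against 1786 (A_t1), 1645 (A_t2), 1563 (B_t1) and 1546 CPM (B_t2) in animal libraries. It was higher on the vegetal side of all 4 pairs, but the groups overlapped, and its log2 fold change of 0.17 ± 0.07 (95% interval 0.01 to 0.34) missed the threshold (adjusted p = 0.109, edgeR). In X. tropicalis it had 1702 and 1635 CPM in vegetal and 1658 and 1606 CPM in animal libraries of females 1 and 2. The log2 fold change there was 0.03 ± 0.06, with a 95% interval of -0.09 to 0.15 (adjusted p = 0.734, edgeR), and -0.03 with scaling by library totals. Members whose vegetal and animal libraries did not overlap numbered 5 of 10 in X. laevis and 6 of 10 in X. tropicalis, and 21.3% and 35.7% of all tested models had that property.

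**Figure D2:**
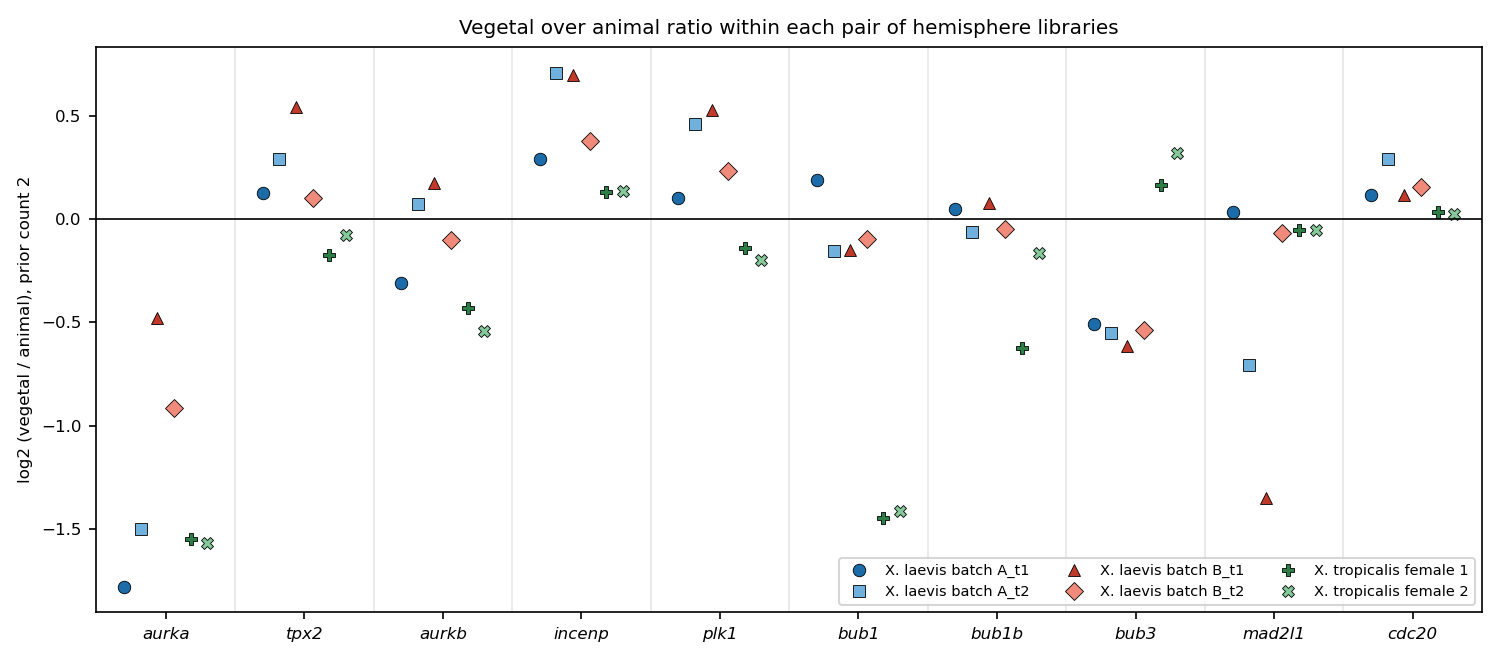
Log2 ratio of the vegetal over the animal library (y axis, prior count of 2) for each of the 10 members (x axis) in each of the 6 pairs of libraries. The ratios of aurka lie below 0 in all 6 pairs, those of bub3 split by species, those of bub1 near -1.4 are the 2 X. tropicalis pairs, and those of mad2l1 spread from 0.04 to -1.35 over the X. laevis batches.

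The differences between the species were tested as an interaction over the models tested in both, of which 12.5% were called, 6.70% with a higher and 5.77% with a lower ratio in X. laevis. Of the 10 members, 1 was called in each direction. The vegetal over animal ratio of bub1 was higher in X. laevis by 1.38 ± 0.13 on the log2 scale (adjusted p = 0.000456, edgeR), a difference that 215 of the 11688 models, bub1 included, reached or exceeded. That of bub3 was lower in X. laevis by a log2 difference of -0.80 ± 0.11 (adjusted p = 0.00215, edgeR). The 2 proteins are known to bind each other, and their mRNAs moved in opposite directions between the species. The difference of their log2 ratios, bub1 minus bub3, was 0.70 (A_t1), 0.40 (A_t2), 0.46 (B_t1) and 0.44 (B_t2) in X. laevis, against -1.62 and -1.74 in females 1 and 2 of X. tropicalis. Both calls were made in all 8 alternative fits of the interaction. These fits changed the scaling, the block or the filter, or left out an X. laevis batch. None left out an X. tropicalis library, so that dependence of the calls on a single X. tropicalis pair was not tested. The test also counts batches of an X. laevis female as separate pairs, although they are not separate animals.

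For the other 8 members the interaction was not called. The difference for plk1, 0.50 ± 0.14, missed the threshold narrowly (adjusted p = 0.0507, edgeR). It passed with DESeq2 size factors (0.0418), over the models that averaged 5 CPM or more in each species (0.0374) and without batch A_t1 (0.0206) or B_t1 (0.0457), as adjusted p. For aurkb it was 0.44 ± 0.15 (adjusted p = 0.0859, edgeR) and passed without batch A_t1 (0.0259). The differences of tpx2 (0.39 ± 0.14), bub1b (0.39 ± 0.16), incenp (0.38 ± 0.14), aurka (0.39 ± 0.31), cdc20 (0.14 ± 0.11) and mad2l1 (-0.47 ± 0.35) had adjusted p between 0.111 and 0.466 (edgeR). The widest 95% intervals were those of aurka, -0.33 to 1.10, and mad2l1, -1.26 to 0.32. Not adjusted for the number of models, those of plk1 (0.18 to 0.81), aurkb (0.11 to 0.77), tpx2 (0.0695 to 0.705), incenp (0.05 to 0.71) and bub1b (0.02 to 0.75) lay above 0. The median difference of the 10 members was 0.387, beside 0.026 over all models tested in both. An unadjusted p under 0.05 (edgeR) was found for 7 of the 10 and for 27.5% of these models. A missed call thus does not show that a ratio is alike in the 2 species. In this test both species share a single spread for each model, while separate fits gave a common biological coefficient of variation of 0.132 for X. laevis and 0.0468 for X. tropicalis.

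**Figure D3:**
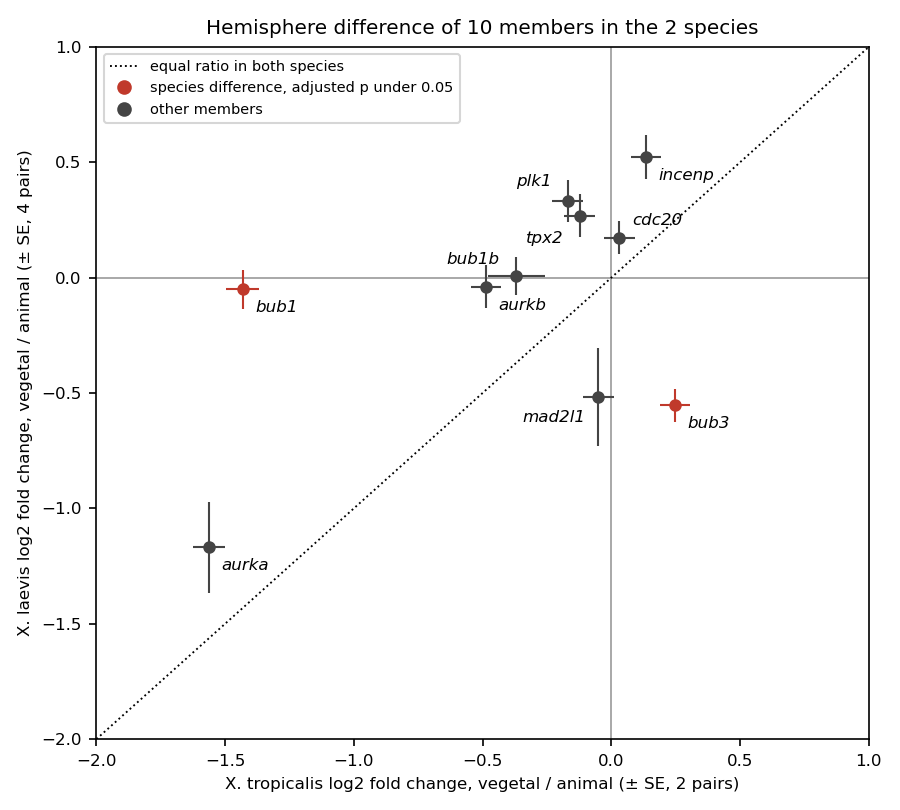
Log2 fold change of vegetal over animal libraries in X. laevis (y axis, 4 pairs) against that in X. tropicalis (x axis, 2 pairs) for the 10 members, with standard errors as bars and a dotted line of equal ratios. The 2 members called in the test of the species difference are red: bub1 at -0.05 in X. laevis and -1.43 in X. tropicalis, and bub3 at -0.55 and 0.25.

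A set of 3 members, aurkb, plk1 and incenp, kept nearly constant differences from one another in the 6 pairs of libraries. The set was picked after its values were seen, and the values are a description. The log2 ratio of aurkb minus that of plk1 was -0.41 (A_t1), -0.39 (A_t2), -0.35 (B_t1) and -0.33 (B_t2) in X. laevis, against -0.29 and -0.34 in X. tropicalis. That of aurkb minus incenp lay between -0.68 and -0.48 and that of plk1 minus incenp between -0.33 and -0.15 in all 6 pairs. These were the 3 narrowest of the 45 pairs of members, with ranges of 0.12 to 0.20 on the log2 scale against a median range of 1.30. Such closeness is not particular to these 3. The model nearest to aurkb over the 6 pairs was ap4s1, at a distance of 0.065. Its ratios were -0.33 (A_t1), 0.03 (A_t2), 0.17 (B_t1) and -0.10 (B_t2) in X. laevis, against -0.47 and -0.53 in X. tropicalis. The nearest models of plk1 and incenp lay at distances of 0.123 and 0.134. Ranges over all models were not computed. In all 6 pairs the order of these 3 ratios was thus the same, with incenp the most vegetal, plk1 next and aurkb the least vegetal. The differences of tpx2 from these 3 varied more, with ranges of 0.26 to 0.29, and plk1 minus tpx2 changed sign, between -0.12 and 0.17. Among the X. laevis batches, the ratios of aurkb, plk1, incenp and tpx2 were all higher in A_t2 and B_t1 than in A_t1 and B_t2, while that of mad2l1 was lower in A_t2 and B_t1.

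Levels of 1 mRNA can be set side by side across the groups, with the limit that the species were scaled apart and that X. laevis counts carry X. tropicalis model identifiers, with separate L and S gene copies (listed for 8 of the 10 in the RefSeq table of X. laevis v10.1, and an L copy alone for bub1 and bub1b) given as 1 value. Over all libraries of a species the mean CPM of bub3 was 134 for X. laevis and 554 for X. tropicalis, 4.14-fold higher in X. tropicalis. For bub1b it was 47.5 CPM in X. laevis and 24.4 CPM in X. tropicalis, and for incenp 1824 and 1031 CPM in the same order of species. The remaining 7 members differed by at most 1.69-fold between species, and their closest values were those of cdc20 (1740 CPM in X. laevis and 1650 CPM in X. tropicalis) and tpx2 (362 and 393 CPM). Over all models tested in both, the log2 ratio of X. laevis over X. tropicalis had a median of 0.03 and was -2.19 at the 10th and 2.04 at the 90th percentile. No test was made of these levels, since mapping and gene copies cannot be told apart from species.

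The order of the 4 group means was not the same for all members. For bub1 the X. tropicalis animal mean (401 ± 27.7 CPM, SD, n = 2) stood above the other 3, which lay between 149 and 168 CPM and overlapped. For aurka the animal means of X. laevis (884 CPM) and X. tropicalis (757 CPM) came first, followed by the vegetal means of X. laevis (408 CPM) and X. tropicalis (257 CPM), and no libraries of neighbouring groups overlapped. For bub3 both X. tropicalis groups stood above both X. laevis groups, with no overlap between any 2 neighbours. For cdc20 the X. laevis vegetal mean (1845 CPM) led, the other 3 lay between 1632 and 1669 CPM, and libraries of all neighbouring groups overlapped. Between the X. laevis females, mean levels over both hemispheres differed by at most 0.21 on the log2 scale for 9 members, while mad2l1 had 174 CPM in female B and 235 CPM in female A (log2 ratio -0.44). The same ratio over all tested models was -0.57 at the 10th and 0.78 at the 90th percentile.

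The models most like aurka were sought by the distance between log2 ratios over the 6 pairs, among 7701 other models that had a symbol and averaged 5 CPM or more in each species. The nearest 3 were slx4, a scaffold of DNA repair nucleases (distance 0.609), the nucleoporin nup214 (0.654) and dand5, an inhibitor of Nodal ligands (0.729). The ratios of slx4 were -1.67 (A_t1), -1.49 (A_t2), -0.76 (B_t1) and -1.21 (B_t2) in X. laevis, against -1.89 and -1.85 in X. tropicalis. All 3 had their highest ratio in batch B_t1, as aurka did, but the 3 were picked by these same ratios. With a prior count of 0.5 they were again the nearest 3. The nearest model of each other member lay closer to it, at distances from 0.065 (aurkb) to 0.352 (bub1).

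Other genes of the spindle and checkpoint were counted in 6 lists of 132 symbols, which gave 108 models, each tested in both species. Symbols without a model are not counted. The lists were chosen with earlier results of these data known, so that the shares below are a description. In X. laevis 27 were called vegetal (25.0%) and 14 animal (13.0%), with a median log2 fold change of -0.008. In X. tropicalis 36 were called vegetal (33.3%) and 21 animal (19.4%), with a median of 0.062. In the same fits 13.2% of all models were called vegetal and 14.4% animal in X. laevis, and 15.6% and 17.3% in X. tropicalis. These shares also stand beside the counts of single lists below. Separate fits of only the models whose mean reached 5 CPM called 17.0% vegetal and 18.3% animal in X. laevis, and 16.5% and 19.8% in X. tropicalis. The lists also hold models below that level. The counts of the 108 depended on single libraries and on the block. Without batch A_t2 they were 13 vegetal and 5 animal in X. laevis, where 5.52% and 6.33% of all models were called. Without the block they were 3 and 0 in X. tropicalis, where 1.35% and 0.681% of all models were called.

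Of 6 further genes of the passenger complex and of centromere protection, 3 were vegetal and 0 animal in X. laevis, and 3 and 1 in X. tropicalis. The survivin gene birc5.1 was vegetal in X. laevis (log2 fold change 0.65 ± 0.11, adjusted p = 0.00493) and animal in X. tropicalis (-0.17 ± 0.06, adjusted p = 0.0196, edgeR), and its species difference of 0.82 ± 0.18 was called (adjusted p = 0.0186, edgeR). Its relative birc5.2 was vegetal in both (0.63 ± 0.12 and 0.56 ± 0.13), as was cdca9, a relative of borealin (0.36 ± 0.10 and 0.20 ± 0.06). Of 10 other checkpoint proteins, 2 were vegetal and 3 animal in X. laevis, and 3 and 3 in X. tropicalis. The kinetochore scaffold casc5 (Knl1), which recruits Bub1 and Bub3, was animal in both (-0.50 ± 0.09 in X. laevis and -0.90 ± 0.07 in X. tropicalis). The checkpoint kinase ttk (Mps1) was vegetal in both (0.76 ± 0.20 in X. laevis and 0.59 ± 0.06 in X. tropicalis). The checkpoint remodeller trip13 was called animal in X. laevis (-1.56 ± 0.16) and had -0.10 ± 0.10 in X. tropicalis, with a called species difference of -1.46 ± 0.25 (adjusted p = 0.00697, edgeR).

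Of 17 subunits and regulators of the anaphase-promoting complex, 3 were vegetal and 2 animal in X. laevis, and 4 and 4 in X. tropicalis. The subunit cdc27 was animal in both (-0.72 ± 0.08 in X. laevis and -0.77 ± 0.06 in X. tropicalis), and anapc10 was vegetal in both (0.67 ± 0.08 in X. laevis and 0.45 ± 0.06 in X. tropicalis). The same held for fbxo43, known as Emi2, the inhibitor that holds eggs in metaphase (0.52 ± 0.08 in X. laevis and 0.35 ± 0.10 in X. tropicalis). The subunits anapc2 and cdc23 were animal in X. tropicalis (-0.57 ± 0.08 and -0.57 ± 0.07) and not called in X. laevis. Their species differences of 0.58 ± 0.12 and 0.45 ± 0.11 were called (adjusted p = 0.0161 and 0.0325, edgeR). Among 11 relatives and regulators of the Aurora and Polo kinases, 2 were vegetal and 1 animal in X. laevis, and 4 and 1 in X. tropicalis. The Polo family member plk3 was far more vegetal than plk1: it had 698 CPM in vegetal and 142 CPM in animal libraries of X. laevis (2.29 ± 0.14, adjusted p = 2.89e-05), and 785 and 89.6 CPM in those of X. tropicalis (3.13 ± 0.07, adjusted p = 4.78e-94, edgeR). The kinase mastl (Greatwall) was called vegetal in X. laevis (0.28 ± 0.07) and animal in X. tropicalis (-0.18 ± 0.06), with a called species difference of 0.45 ± 0.11 (adjusted p = 0.0279, edgeR).

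Of 40 spindle assembly factors, 13 were vegetal and 6 animal in X. laevis, and 13 and 9 in X. tropicalis. The microtubule bundling protein nusap1 was animal in both (-1.47 ± 0.11 in X. laevis and -0.94 ± 0.07 in X. tropicalis), and its species difference was not called (adjusted p = 0.0872, edgeR). The cytokinesis scaffold anln was vegetal in both (0.37 ± 0.09 in X. laevis and 1.62 ± 0.06 in X. tropicalis), with a called species difference of -1.25 ± 0.15 (adjusted p = 0.00152, edgeR). The spindle pole protein numa1 had -0.15 ± 0.07 in X. laevis, which was not called, and was animal in X. tropicalis (-1.21 ± 0.07), with a called species difference of 1.05 ± 0.11 (adjusted p = 0.000733, edgeR). Of 24 kinetochore genes, 4 were vegetal and 2 animal in X. laevis, and 9 and 3 in X. tropicalis. The centromere gene cenpn was vegetal in both (1.46 ± 0.19 in X. laevis and 1.50 ± 0.06 in X. tropicalis). The gene ska1 was animal in X. laevis (-1.95 ± 0.19) and had -0.03 ± 0.08 in X. tropicalis, with a called species difference of -1.92 ± 0.28 (adjusted p = 0.00323, edgeR). The gene dsn1 had -0.15 ± 0.10 in X. laevis and was animal in X. tropicalis (-1.50 ± 0.07), with a called species difference of 1.33 ± 0.17 (adjusted p = 0.00179, edgeR). The gene nsl1 went the other way, with 0.02 ± 0.11 in X. laevis and a vegetal call in X. tropicalis (1.22 ± 0.08). Its species difference of -1.21 ± 0.16 was called (adjusted p = 0.00217, edgeR). In 9 of the 108 the species difference was called with a higher and in 9 with a lower ratio in X. laevis (8.33% each). Of all models tested in both species, 6.70% were called with a higher and 5.77% with a lower ratio in X. laevis.

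**Figure D4:**
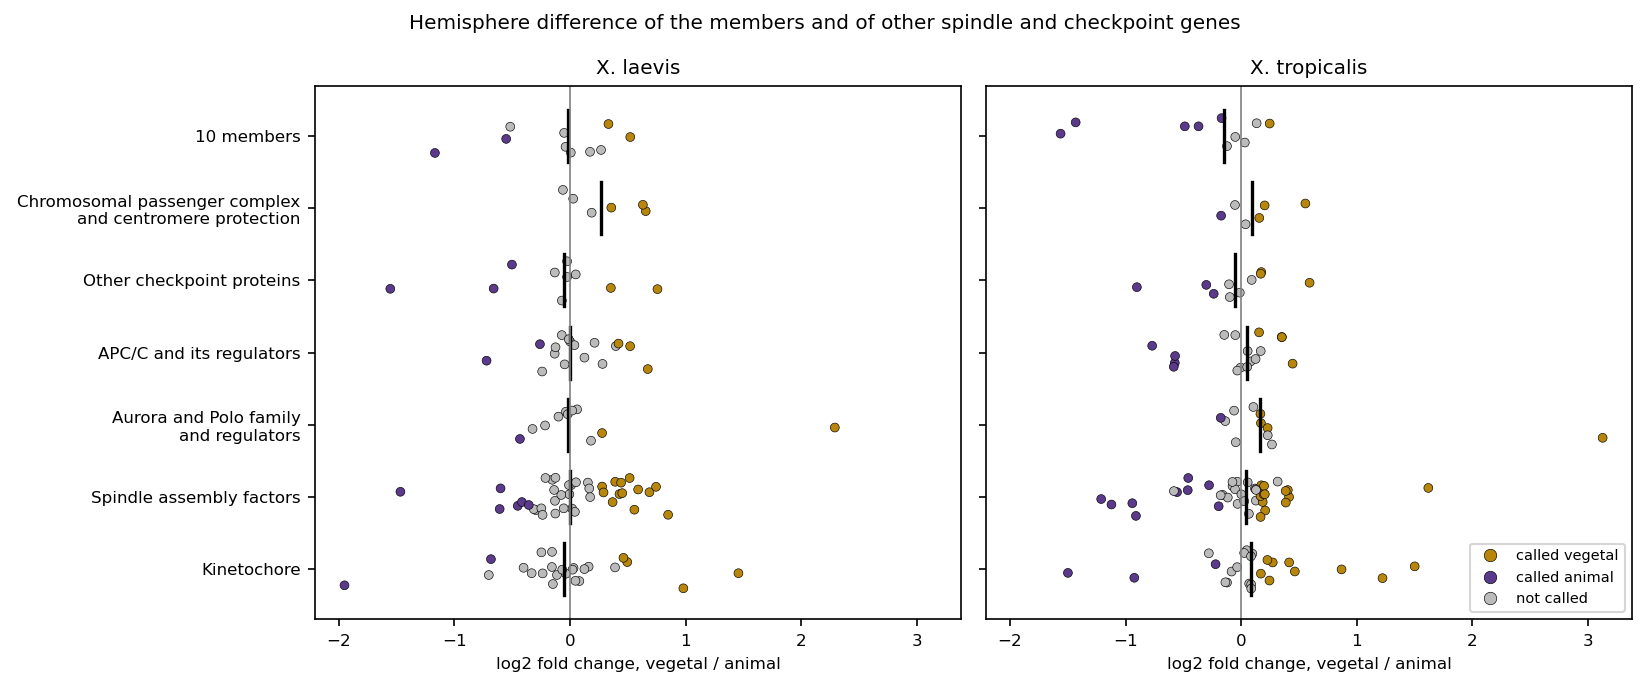
Log2 fold change of vegetal over animal libraries (x axis) in X. laevis (left) and X. tropicalis (right) for the 10 members and for the 6 lists of other spindle and checkpoint genes (rows); each point is 1 gene model, its colour gives the call, bars mark the median of a list, and points are spread vertically for sight. Medians lie between -0.146 and 0.272, while single genes reach from -1.95 (ska1, X. laevis) to 3.13 (plk3, X. tropicalis).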

How the data were processed

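RNA was measured in 12 libraries of vegetal and animal oocyte hemispheres. The deposited files hold raw read counts per gene model, with no normalization by the authors stated. Per the submitters' processing notes, Bowtie2 2.1.0 was used, and edgeR and DESeq are listed too. Genome build, counting program and strand setting were not given in the sources used here. Paralogs, L and S copies and overlapping genes may share reads. Per the file headers, the annotation pairs 28165 models with records.

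Counts were tested with edgeR 4.0.16 in R 4.3.3 (filterByExpr and TMM per species, quasi-likelihood F test, Benjamini-Hochberg over all models tested, 0.05). The batch or female, which the labels give for both hemispheres, was a block. Libraries of the same batch or female deviated together (correlations of 0.701 to 0.844), but so did X. laevis libraries of the other batch of a female (0.755 to 0.833), so that this check shows sharing by female and the labels alone tie hemispheres to a batch. Standard errors come from the F statistic. DESeq2 1.42.0, other scalings and filters, no block and left-out libraries were alternatives. An X. tropicalis fit with 1 library left out has no block and assumes that the lone library varies like the other group. Within-pair ratios used a prior count of 2. Fits were also run on simulated data in which all models of a species had the same spread. Such data cannot judge calls that depend on the spread of single models. Figures used matplotlib 3.10.9.

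All 10 members are named. Of each other list, at most the 3 called models with the lowest adjusted p per species were eligible. Models like a member are described for aurka, the member called in both species in 1 direction. For other members only nearest distances are given, and for aurkb also its nearest model, ap4s1. Members and lists were chosen with earlier results of these data known. No sequences are shown.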

Additional observations from a re-analysis of the deposited data

Results flagged for a closer look

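The hemisphere ratio of bub1 differed between the species in a test of the difference itself, by 1.38 on the log2 scale, X. laevis minus X. tropicalis. In X. laevis its mean was 161 ± 15.6 CPM in vegetal and 168 ± 23.3 CPM in animal libraries (SD, n = 4 each), and in X. tropicalis it was 149 ± 7.95 and 401 ± 27.7 CPM (SD, n = 2 each). The ratio of bub3 differed in the same test by -0.80, with 109 ± 8.21 CPM in vegetal and 159 ± 9.12 CPM in animal libraries of X. laevis, and 601 ± 12.9 and 508 ± 48.7 CPM in those of X. tropicalis. No member had a library that stood apart from the others of its group by Dixon's criterion in the 20 groups of 4 X. laevis libraries.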

How the results depend on the processing

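The batch or female was the replicate block. Without this block the members called stayed at 2 vegetal and 2 animal in X. laevis (6.19% and 7.78% of all models). In X. tropicalis they came to 0 vegetal and 2 animal (aurka and bub1), against 1 and 5 with the block. The share of all models called fell there too, to 1.35% vegetal and 0.681% animal, from 15.6% and 17.3%. The X. laevis count of vegetal members was 1 in female B alone (6.02% of all models), 1 in female A alone (7.59%) and 1 to 2 with a batch left out (5.52% to 14.4%). In X. tropicalis, DESeq2 gave 1 vegetal and 3 animal members (7.83% and 8.49% of all models). No filter beyond 1 count gave 2 vegetal ones (9.75% of all models). With a library left out, 1 hemisphere has a single library and there is no block, and those calls are not counted here. Members with a higher ratio in X. laevis than in X. tropicalis were 2 with DESeq2 size factors (7.10% of all models). They were 2 among models of at least 5 CPM (8.37%) and 1 to 3 with a batch left out (4.07% to 9.34%). In the test of the females, a batch left out leaves 1 female a single pair, and only log2 differences are given for those fits. Without B_t2 they were 1.17 for aurka and -1.01 for mad2l1.

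No fit in which the sign of a single member turned called that member, and of these members only bub1b of X. tropicalis was called with all libraries and the block; the cause was not tested. In X. laevis aurkb was 0.047 in female B alone and -0.089 to 0.066 with a batch left out, bub1 was 0.02 in female A alone and -0.116 to 0.003 with a batch left out, and bub1b was -0.066 with library totals, -0.011 among models of at least 5 CPM and -0.004 in female A alone. In X. tropicalis, leaving out a library gave -0.837 to 0.075 for bub1b, -0.257 to 0.024 for tpx2 and -0.183 to 0.098 for mad2l1, and library totals gave -0.029 for cdc20. The difference between females, B minus A, ran with a batch left out from -0.056 to 0.333 for aurkb, -0.102 to 0.266 for plk1, -0.323 to 0.012 for bub1, -0.061 to 0.092 for bub1b, -0.191 to 0.238 for incenp, -0.128 to 0.343 for tpx2, -1.01 to 0.247 for mad2l1 and -0.17 to 0.009 for cdc20.

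Depth limits bub1b most, which had 182 counts in 1 X. tropicalis library. Library totals moved the median over all models to -0.087 in X. laevis and -0.067 in X. tropicalis, with 1442 vegetal and 2619 animal calls in X. laevis (1922 and 2095 with TMM) and 1436 and 2743 in X. tropicalis (2020 and 2236 with TMM).

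For the 108 other spindle and checkpoint genes, the 27 vegetal and 14 animal calls of X. laevis were 14 and 9 without the block. In that fit 6.19% of all models were called vegetal and 7.78% animal. In X. tropicalis the 36 vegetal calls were 21 with library totals (11.1% of all models) and 15 with DESeq2 (7.83%).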
